A study of Ecsenius pulcher with 24 samples.

Results

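Tail muscle of hypoxia-exposed *Ecsenius pulcher*, a blenny of coral reefs, was compared between fish sampled after reoxygenation and recovery (post hypoxic, n = 6) and fish sampled while oxygen was low (acute hypoxic, n = 6). These 12 fish were chosen by the titles of their libraries, out of 24 fish in the series. The other 12 were time-matched fish kept without hypoxia, 6 at the later point (post control) and 6 at the earlier point (acute control). Each fish gave 1 library of polyadenylated RNA from a skinned cross section of the front of the tail, and low-oxygen exposures followed the profiles of local reefs. The sources used here give neither the age and sex of the fish nor the length and depth of exposure or the length of recovery.

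Skeletal muscle of fish is mostly white fibre that can work for short periods without oxygen by breaking down phosphocreatine and glycogen. When oxygen falls, vertebrate cells stabilise hypoxia-inducible factors, transcription factors that raise genes for glycolysis, for glucose uptake and for limiting mitochondrial respiration. Reoxygenation lets the oxygen-sensing hydroxylases mark these factors for breakdown again, and tissues clear lactate and refill their energy stores. Water over coral reefs loses oxygen at night, when photosynthesis stops and respiration goes on.

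The deposited table identifies features only by assembly ID and does not pair the IDs with gene names. A feature is an assembly gene, a cluster of transcripts built from the reads, and features are nested in assembly components. No feature could therefore be given a name or a role, the muscle label could not be checked against marker genes, and only 4 IDs are printed. Reads of near-identical copies may be divided between features of the same component, so the level of a single feature is uncertain to that extent. In a bulk sample, fewer cells of a type and less RNA per cell cannot be told apart.

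Sampling point and sampling series were the same division of the libraries: libraries of the acute series and of the post series also carry different styles of name. Time, recovery and any batch between the series cannot be told apart within exposed fish. The control fish underwent the same division without hypoxia, so their values stand beside each result. Among acute hypoxic fish, the share of counts held by the 10 most abundant features spread widely and was lowest in replicate 1, at 10.7%. The other 5 held 15.5% to 27.0%. The main counts of calls are given with and without acute hypoxic replicate 1. Acute control replicate 5 was likewise the lowest of its group, at 14.5% against 20.8% to 30.9% in the other acute controls. Counts without that control are given with the other refits. Post hypoxic replicate 4 held whole values throughout; in the other 23 libraries 3.39% to 7.33% of nonzero values had decimals.

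A large set of features differed between recovered fish and fish in hypoxia. Of 65664 features tested with the quasi-likelihood test of edgeR, 3981 (6.06%) passed a Benjamini-Hochberg adjusted p of 0.05 between post hypoxic and acute hypoxic fish. Of these, 1718 (2.62%) were higher and 2263 (3.45%) were lower in post hypoxic fish. The median log2 fold change was 1.54 among the higher features and -1.61 among the lower ones, and over all features tested it was -0.00309 with a median standard error of 0.39. At least 8-fold changes (3 log2 units) were found in 232 higher and 302 lower features. Without acute hypoxic replicate 1 the calls numbered 4607, of which 2156 were higher and 2451 lower. Without acute hypoxic replicate 3, 5 or 6, or post hypoxic replicate 5, they numbered 2585, 2512, 2635 and 2638 in that order, and each of these fits had 1 exposed fish fewer.

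Most of these features had the same direction in control fish. Control libraries form no part of the contrast between exposed fish, but they entered the filter, the scaling and the estimate of spread behind the calls. The calls numbered 3307 when only the 12 exposed libraries were filtered, scaled and fitted. Of the 3981 features, 97.5% had the same sign in post controls against acute controls, against 73.5% of all features tested. The control contrast called 5177 features (7.88% of those tested), and 2123 were called in both contrasts in the same direction, which is 53.3% of the calls in exposed fish and 41.0% of the calls in controls. Without acute hypoxic replicate 1 there were 6115 calls in controls and 2342 in both. In the fit of all 24 libraries that is reported throughout, 0 features were called in both contrasts in opposite directions. Such features numbered 87 with no filter on low counts, 5 at an adjusted p of 0.1, 4 with DESeq2, 3 with limma voom, 3 without acute hypoxic replicate 1, and at most 2 under each other alternative. A further 966 features called in exposed fish (24.3% of those calls) had an unadjusted p up to 0.05 in controls without passing there. All but 3 of these had the same sign. The share of all features tested with a control p under 0.05 was 22.8%, which includes the 7.88% that passed. The like base for the 966 is the part of the 22.8% that remains without the 7.88%. The median log2 fold change of the 1718 higher features was 1.54 in exposed fish and 1.33 in controls, and that of the 2263 lower features was -1.61 in exposed fish and -1.15 in controls. Calls select large estimates in the fish that gave them, so the smaller control medians are no measure of a weaker change.

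**Figure D1:**
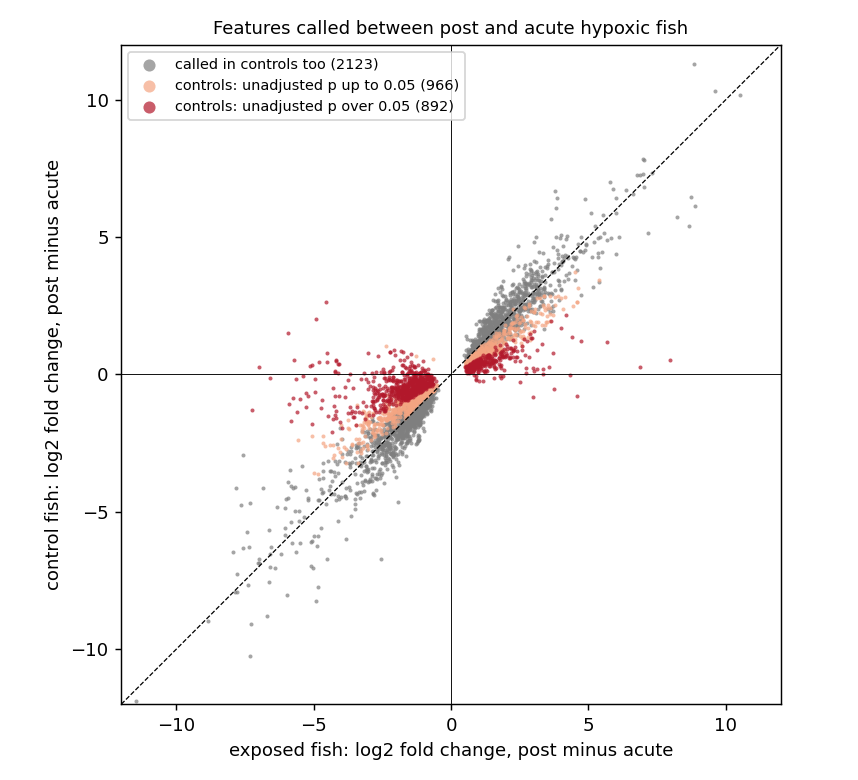
Each point is 1 of the 3981 features called between post and acute hypoxic fish, with its log2 fold change (post minus acute) in exposed fish on the x axis and in control fish on the y axis; the dashed line marks equal change. The 2123 features called in both lie along the line, and the 892 with a control p over 0.05 lie closer to the horizontal axis.

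The 2123 shared features had close medians in both kinds of fish. They were chosen by the same threshold and the same direction in both contrasts, which leads the medians to be alike, so the values are a description. The 1045 shared higher features had a median log2 fold change of 1.73 in exposed fish and 1.85 in controls. The 1078 shared lower features had a median of -1.69 in exposed fish and -1.82 in controls. The exposed change was the larger of the pair for 927 features, or 43.7%. Of the shared features with at least 8-fold change in exposed fish, 173 were higher and 170 were lower, and their control medians were 3.88 and -4.13.

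The separation of individual fish could also be read in controls, whose own contrast was not used for the calls. Of the 1718 higher features, every post control lay above every acute control for 636, or 37.0%, against 1.92% of all features tested. Of the 2263 lower features, every post control lay below every acute control for 617, or 27.3%, against 2.00% of all features tested. In exposed fish, whose contrast made the calls, the groups did not overlap for 832 of the higher and 937 of the lower features, where the shares over all features tested were 1.62% and 1.95%.

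The shared feature that rose with the smallest p was TRINITY_DN10735_c0_g1. Its level in CPM, counts scaled to the TMM-adjusted library size, had a lowest, median and highest value of 109.2, 149.95 and 172.2 CPM in post hypoxic fish, against 1.02, 1.40 and 1.65 CPM in acute hypoxic fish. In controls the same values were 94.2, 165.4 and 213.2 CPM in post fish, against 0.857, 1.00 and 1.29 CPM in acute fish. Every post fish lay far above every acute fish, with or without exposure. The log2 fold change was 6.75 (SE 0.27) in exposed fish, a 107.7-fold rise with an edgeR adjusted p of 1.56e-14, and 7.24 (SE 0.28) in controls. The difference of these changes was -0.49 (SE 0.31, unadjusted edgeR p 0.122), which did not pass.

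The shared feature that fell with the smallest p was TRINITY_DN425_c0_g1. It had a lowest, median and highest value of 0.222, 0.747 and 1.24 CPM in post hypoxic fish, against 16.7, 20.5 and 27.8 CPM in acute hypoxic fish. The values were 0.281, 0.685 and 1.20 CPM in post controls, against 16.9, 17.5 and 19.1 CPM in acute controls. Neither pair of groups overlapped. Its log2 fold change was -4.84 (SE 0.31, edgeR adjusted p 1.15e-10) in exposed fish and -4.58 (SE 0.31) in controls, a difference of -0.27 (SE 0.39).

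**Figure D2:**
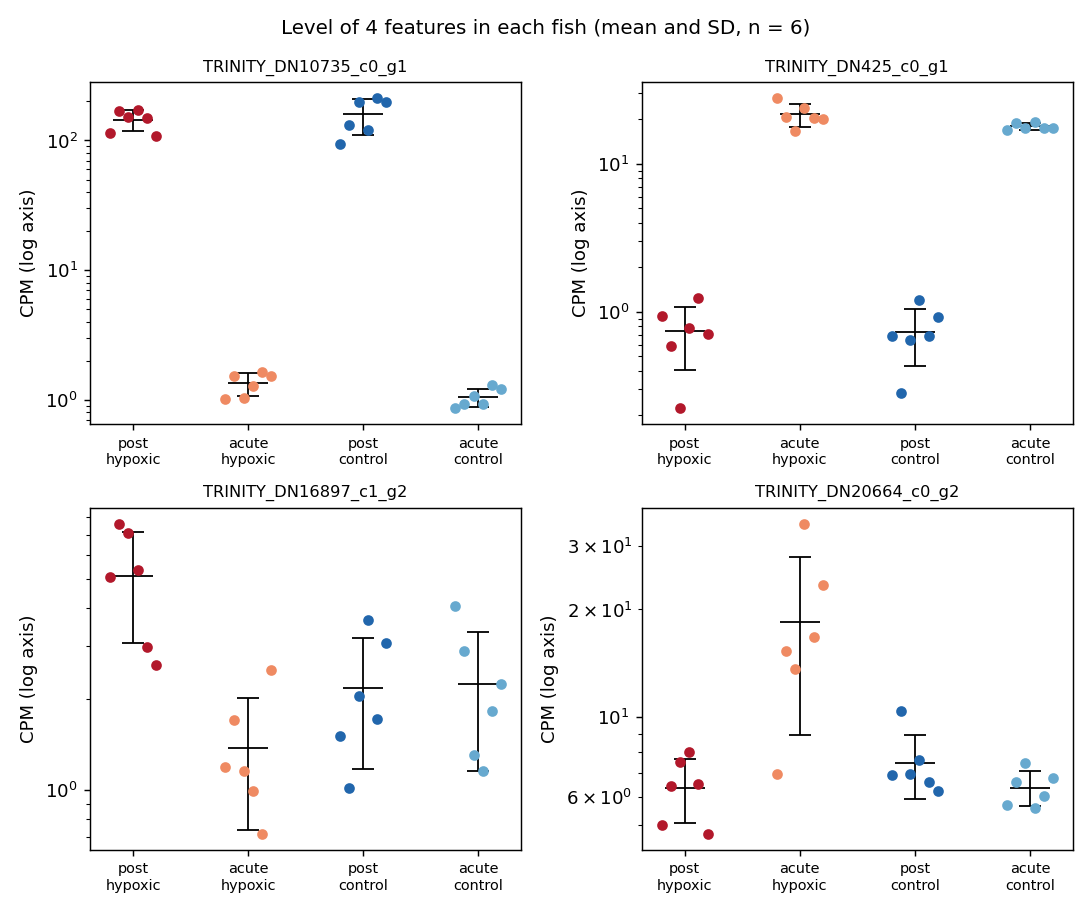
Level in CPM (log axis) of 4 features in each of the 24 fish, with group mean and SD (n = 6). The upper features separate post from acute fish with and without exposure; of the lower ones, post hypoxic fish reach 7.61 CPM on the left and acute hypoxic fish 34.7 CPM on the right, and control groups overlap in both.

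The next question was which features moved in exposed fish and not in controls. An exposed-only list was made of the features called in exposed fish whose unadjusted p in controls was over 0.05. It held 892 features, 281 higher and 611 lower in post hypoxic fish, or 22.4% of the exposed calls. Over all features tested, 77.2% had such a control p. The same rule turned round, calls in controls with a p over 0.05 in exposed fish, gave 1461 features, or 28.2% of the control calls; over all features tested, 79.2% had such an exposed p. In this fit, fish that met no hypoxia thus gave a longer list by the same rule. The list turned round was not counted under other settings. Calls in exposed fish outnumbered those in controls with limma voom and without acute control replicate 2 or 3, and under no other setting. The exposed-only list held 1242 features without acute hypoxic replicate 1, with 710 of the 892 among them. It held 457, 455 and 480 without acute hypoxic replicates 3, 5 and 6, 496 and 523 without post hypoxic replicates 5 and 6, and 1380 without post control replicate 3.

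A call in exposed fish and none in controls does not show that the changes differ, and the difference was tested directly. For the difference of the time changes, exposed minus control, 0 of 65664 features passed with edgeR (smallest adjusted p 0.889). At an unadjusted p under 0.05 there were 2297 features (3.50%), of which 1440 (2.19%) had a negative and 857 (1.31%) a positive difference. DESeq2 called 14 features for the difference, at 1.27 to 23.8 log2 units in size. The edgeR differences over all features tested ran from -11.8 to 12.98, short of the largest DESeq2 value. For the difference limma voom called 0, with 4419 at an unadjusted p under 0.05, and edgeR with no filter on low counts called 915 of 487995 features. Without acute hypoxic replicate 1 edgeR called 3. The median standard error of the difference was 0.54 log2 units, against 0.39 for the change in exposed fish, so a difference has to be larger than a change to be detected.

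The 611 exposed-only features that fell had a median log2 fold change of -1.60 in exposed fish and -0.45 in controls. Side by side with libraries that these contrasts share, their median was 0.55 for acute hypoxic minus acute control and -0.51 for post hypoxic minus post control. The 281 that rose had medians of 1.18 in exposed fish and 0.39 in controls, with -0.33 for acute hypoxic minus acute control and 0.34 for post hypoxic minus post control. Most still leaned the same way without exposure: 531 of the 611 (86.9%) and 266 of the 281 (94.7%) had the same sign in controls. Over all features tested, 73.5% had the same sign. Among those that changed at least 8-fold, it was 71.8% of the features that fell and 85.0% of those that rose. The control change was under 0.5 log2 units in either direction for 325 of the 611 (53.2%) and 182 of the 281 (64.8%), against 56.4% of all features tested. Both lists were chosen by a control p over 0.05, which favours small control changes, while the 56.4% covers features of any control p. These shares are therefore a description. An unadjusted edgeR p under 0.05 for the difference was found for 271 of the 611 (44.4%) and 89 of the 281 (31.7%). These features were chosen by a call in exposed fish and a control p over 0.05, which together favour a small p for the difference. The shares are therefore a description. Over all features tested, 2.19% were under 0.05 with a negative and 1.31% with a positive difference. On the list turned round, of calls in controls with an exposed p over 0.05, it was 459 of 1461 (31.4%) with both directions together. The like count on the exposed-only list was 360 of 892 (40.4%).

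Some large exposed-only changes rested on a single fish. Of the 71 exposed-only features that fell at least 8-fold, 24 had 1 acute hypoxic fish that held over 50% of the group's summed CPM, and the groups did not overlap for 17. Their median log2 fold change was -4.21 in exposed fish and -0.79 in controls, at a median mean level of 0.825 CPM. Of the 20 that rose at least 8-fold, 11 had 1 post hypoxic fish with over 50%, and 3 did not overlap. Over all features tested, 1 fish held over 50% in the higher exposed group for 2.95%, and exposed groups did not overlap for 1.95% with post hypoxic fish lower and 1.62% with post hypoxic fish higher. Over all 3981 calls, 1 fish held over 50% for 112, and the median mean level was 3.72 CPM.

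The exposed-only feature that fell with the smallest p for the difference was TRINITY_DN20664_c0_g2. It had a lowest, median and highest value of 4.71, 6.47 and 7.98 CPM in post hypoxic fish, against 6.96, 16.05 and 34.7 CPM in acute hypoxic fish. The values were 6.23, 6.92 and 10.4 CPM in post controls, against 5.58, 6.30 and 7.44 CPM in acute controls. Post hypoxic fish lay at the level of both control groups and acute hypoxic fish above it, except acute hypoxic replicate 1, which held the lowest value and lay within the range of acute controls. The log2 fold change was -1.54 (SE 0.26, edgeR adjusted p 0.000471) in exposed fish and 0.23 (SE 0.25) in controls. The difference was -1.76 (SE 0.36), with an edgeR adjusted p of 0.889. It was -1.93 (SE 0.30, edgeR adjusted p 0.0346) without acute hypoxic replicate 1, and -1.77 (SE 0.38, adjusted p 0.028) with DESeq2 on all 24 fish. Leaving out acute hypoxic replicate 1 removes the lowest acute hypoxic value, which favours a pass. The difference did not pass in 23 of 24 refits that each left out 1 fish, and was -1.47 without acute hypoxic replicate 4. Nor did it pass in 9 of 11 alternatives of processing.

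The exposed-only feature that rose with the smallest p for the difference was TRINITY_DN16897_c1_g2. It had a lowest, median and highest value of 2.60, 5.20 and 7.61 CPM in post hypoxic fish, against 0.715, 1.17 and 2.50 CPM in acute hypoxic fish. The values were 1.02, 1.88 and 3.66 CPM in post controls, against 1.16, 2.04 and 4.06 CPM in acute controls. The exposed groups did not overlap, by a margin of less than 0.1 CPM, while the control groups covered nearly the same range. Control fish of both series stood between the exposed groups on average. The log2 fold change was 1.89 (SE 0.37, edgeR adjusted p 0.00262) in exposed fish and -0.04 (SE 0.36) in controls, and the difference was 1.93 (SE 0.51, edgeR adjusted p 1.00).

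The 14 features that were higher during hypoxia than in acute controls (0.0213% of those tested, edgeR) were all lower in post hypoxic than in acute hypoxic fish and all on the exposed-only list. Over all features tested, 3.45% were called lower and 892 of 65664 were on that list. That contrast shares the acute hypoxic libraries with this one, so features high in those libraries are led toward a fall by their choice, and the count of 14 is a description with no value for no change. The number of acute calls changed with single fish: 48 features were called without acute hypoxic replicate 1, and 0 when any 1 acute control was left out, or acute hypoxic replicate 4, 5 or 6. It was 6 to 24 when 1 post fish, which forms no part of that contrast, was left out. Over 10 alternatives of processing it ranged from 0 to 116. Without acute hypoxic replicate 1 all of the 14 were still called lower in post hypoxic fish, and 11 were on the exposed-only list. Side by side, the median log2 fold change of the 14 was -2.78 for post hypoxic minus acute hypoxic, 0.14 for post control minus acute control, 3.32 for acute hypoxic minus acute control and 0.16 for post hypoxic minus post control. Their changes in exposed fish ran from -5.60 to -1.36.

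The 100 features with the smallest p for the difference (p up to 0.00203) were described in the same way. They were chosen for a large difference, which fixes contrasting medians, so the values are a description. For 81 of them the difference was negative, and these had a median log2 fold change of -1.66 in exposed fish and 0.80 in controls. Their median was 1.55 for acute hypoxic minus acute control and -0.86 for post hypoxic minus post control. The 19 with a positive difference had a median log2 fold change of 0.37 in exposed fish and -2.82 in controls, with -0.80 for acute hypoxic minus acute control and 1.76 for post hypoxic minus post control. Their larger change was thus in the control fish. Of the 14 features that DESeq2 called for the difference, 10 were negative, 6 were on the exposed-only list, and 6 belonged to the 14 acute features.

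The called features held different parts of the muscle RNA in the sampling series. The 1718 higher features took 3.36% to 3.96% of CPM in post hypoxic fish and 0.853% to 1.504% in acute hypoxic fish, against 2.54% to 4.70% in post controls and 0.705% to 1.60% in acute controls. The 2263 lower features took 3.50% to 6.36% in post hypoxic fish and 5.42% to 19.6% in acute hypoxic fish, against 3.58% to 5.84% in post controls and 7.46% to 22.04% in acute controls. Acute hypoxic replicate 1, at 5.42%, lay among the post hypoxic fish, and the next lowest acute hypoxic fish stood at 11.2%. A few abundant features carried most of this. The 10 most abundant of the lower features held 72.9% of the list's CPM in acute hypoxic fish, whereas the 10 most abundant of the higher features held 18.8% of theirs in post hypoxic fish. Without those 10, the lower features took 1.19% to 1.87% in post hypoxic fish and 3.29% to 4.89% in acute hypoxic fish, with no overlap, against 1.23% to 1.80% in post controls and 2.94% to 4.79% in acute controls. The features were chosen by the exposed contrast, so the exposed shares are a description. The control fish entered the choice through the shared filter, scaling and estimate of spread.

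**Figure D3:**
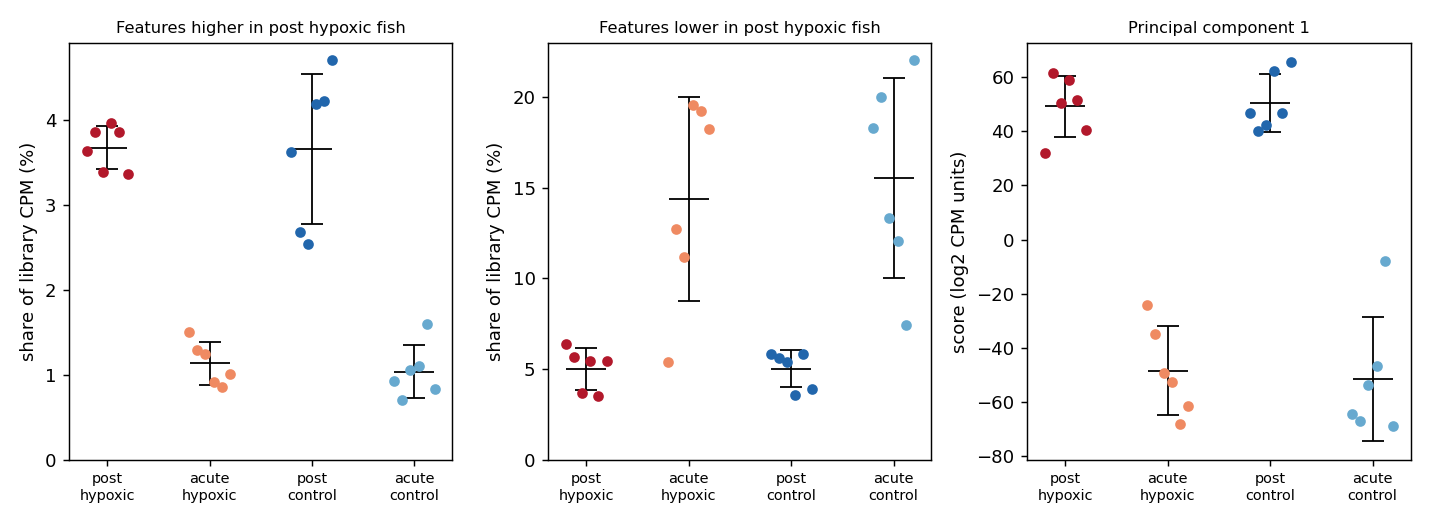
Share of library CPM held by the 1718 features higher and the 2263 features lower in post hypoxic fish, and score on principal component 1, for each of the 24 fish with group mean and SD (n = 6). Post fish with and without exposure overlap in all panels, and acute hypoxic replicate 1 is the lowest acute point in the middle panel at 5.42%.

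Time point separated exposed fish along the main axis of variation, and controls along the same axis. Among the 2000 most variable features, 34.7% of the variance of exposed fish lay between time points (exact permutation p 0.00216 with n = 6 in each group, the lowest p this design can reach), and 35.2% of that of controls. Over all features tested the shares were 23.6% in exposed fish and 22.96% in controls. Principal component 1 averaged 49.3 ± 11.2 in post hypoxic and -48.4 ± 16.5 in acute hypoxic fish (SD, n = 6, exact permutation p 0.00216, adjusted p 0.0108 over 5 library measures). In controls it averaged 50.6 ± 10.7 in post and -51.4 ± 22.95 in acute fish, and the exposed and control differences differed by -4.36 (permutation p 0.741). Variability was ranked over both time points together, which favours features that differ between them.

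Depth moved with the comparison and its part in the result was not tested. Totals averaged 33603705 ± 2395282 counts in post hypoxic and 39209684 ± 2797672 in acute hypoxic fish (SD, n = 6, exact two-sided permutation p 0.0108, adjusted p 0.0271), with 31085706 the lowest and 42235816 the highest total among exposed fish. In controls the totals averaged 33403698 in post and 37246627 in acute fish (exact permutation p 0.104, n = 6). The exposed and control differences in totals differed by -1763049 (permutation p 0.502), so a larger shift in exposed fish was not shown. The share of the 10 most abundant features averaged 13.5% ± 0.593 in post hypoxic and 19.7% ± 6.19 in acute hypoxic fish (exact permutation p 0.0433, adjusted p 0.0703, n = 6). In controls it averaged 13.1% ± 2.99 in post and 23.3% ± 5.84 in acute fish (exact permutation p 0.00649, unadjusted, n = 6). The exposed and control differences in this share differed by 3.95 percentage points (permutation p 0.299). The biological coefficient of variation was 0.487 in the 12 exposed libraries and 0.509 in the 12 control libraries. Between the sampling points it was less even, at 0.553 in the post and 0.438 in the acute libraries.

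The share of features called was larger at higher abundance, and the exposed-only share of those calls was smaller. In the lowest quintile of mean level, 0.0983 to 0.460 CPM, 2.44% of features were called in exposed fish and 3.16% in controls. In the highest quintile, from 8.53 CPM upward, 8.75% were called in exposed fish and 12.8% in controls. The exposed-only share of the exposed calls was 36.3%, 36.1%, 24.4%, 19.2% and 12.2% from the lowest to the highest quintile. The median standard error of the exposed change was 0.68 in the lowest and 0.26 in the highest quintile, and its part in this pattern was not tested.

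**Figure D4:**
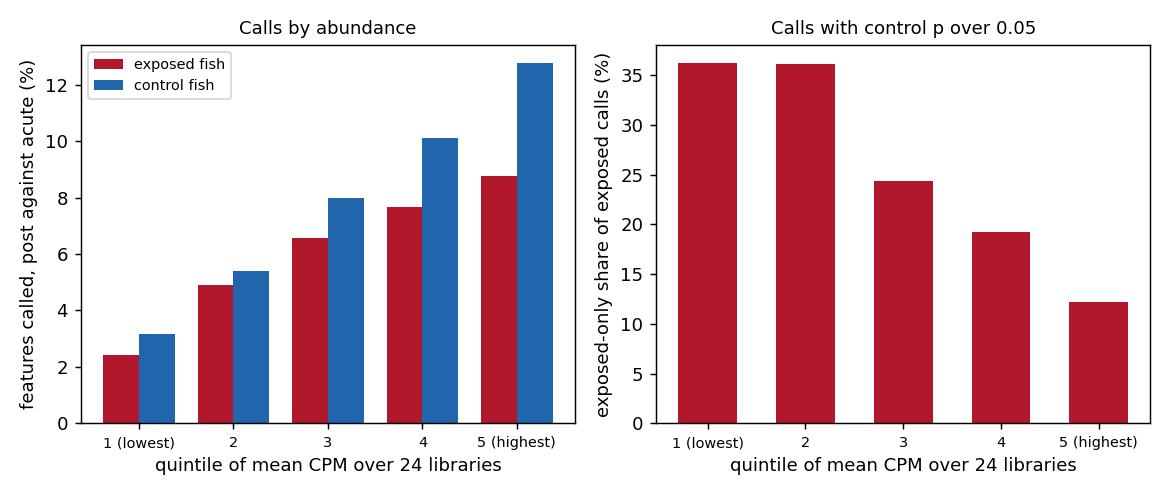
Left, percent of features called between post and acute fish in each quintile of mean CPM, for exposed fish and controls; right, percent of the exposed calls whose control p was over 0.05. Calls increase from 2.44% to 8.75% in exposed fish across the quintiles, while the exposed-only share drops to 12.2% in the highest.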

How the data were processed

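The deposited table holds estimated counts for 518956 features in 24 columns, unscaled, per the file headers. Trimmomatic, RSEM and kallisto are named in the submitters' processing notes, without versions. The assembly and annotation steps are not described there or in the labels. Per the labels, messenger RNA was selected with poly-T beads and each library is 1 fish. Whether the fish of a group came from separate tanks is not stated.

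Estimated counts were rounded to whole numbers. The filterByExpr function of edgeR (version 4.0.16; minimum count 10, minimum total 15) kept 65664 features (12.7%), which held 98.9% to 99.6% of each library. Libraries were scaled by TMM, and the quasi-likelihood test used 1 model of 4 group means over the 24 libraries. Library totals of 31085706 to 43603403 limit the precision of low features, and no molecular identifiers are named. P-values were adjusted over every feature tested, and 0.05 was the threshold. Standard errors are the size of the log2 fold change divided by the square root of F. The method was tested on simulated data.

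Within exposed groups, chi-square per feature over 30 pairs of libraries was 29.6 to 348, so no exposed library was a repeat of another in its group. Pairs that involve control libraries were not among the 30. The comparison, the lists and the rule for named features were chosen with earlier results of these data known. The rule named, per direction, the feature with the smallest p in exposed fish among those called in both contrasts, and the exposed-only feature with the smallest p for the difference. Alternatives were DESeq2 (version 1.42.0), limma voom (version 3.58.1), other scalings, filters and thresholds, a replicate block, a robust fit, sums per component, removal of the 100 most abundant features, a fit of only the 12 libraries compared, and refits that each left out 1 library. The limma voom fit weighted each library by its estimated quality. The newer quasi-likelihood method of edgeR was added after seeing the data.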

Additional observations from a re-analysis of the deposited data

Results flagged for a closer look

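In 2 of 44 group values examined, 1 fish stood far from the others; chance gives about 1 in 20. For TRINITY_DN20664_c0_g2, post control replicate 2 stood at 10.4 CPM, far above the other post controls. The control change of this feature without that fish was 0.11 on the log2 scale, against 0.23 with it. On principal component 1, the highest acute control, replicate 5, scored -7.96, toward the post fish, while the other acute controls lay far below it.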

How the results depend on the processing

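The 3981 calls in exposed fish were 6531 with DESeq2, 6388 with no filter, 6671 at an adjusted p of 0.1 and 7092 with limma voom, and 3259 to 5440 in the other 9 alternatives. The 5177 calls in controls were 8044, 8281 and 8592 in the first 3 of these; with voom they were 6917, fewer than in exposed fish. DESeq2 gave 3467 calls in both against 2123, the unfiltered fit 3306 and the threshold of 0.1 gave 3586. The 892 exposed-only features numbered 1927 with DESeq2, 1615 unfiltered, 2144 at 0.1, 2418 with voom and 1495 with the newer method, and 836, 334, 892, 654 and 847 of the original 892 were among them. The difference of time changes called 14 with DESeq2 and 915 with no filter, among 487995 features tested.

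Leaving out libraries gave 2512 to 4753 calls in exposed fish, 3485 to 6115 in controls, 1522 to 2342 in both, 0 to 3 for the difference and 455 to 1380 exposed-only features. Without acute control replicate 5 these were 3937, 4980, 2137, 0 and 860 in that order, and acute hypoxic against acute control called 0 features. Between exposed groups the top 10 share differed by -8.02 to -4.76 percentage points and passed an unadjusted exact p of 0.05 in only 2 of 12 refits, without acute hypoxic replicates 1 and 3. The TMM factor differed by 0.121 to 0.200 and detected features by -11447 to -5875. Each of the 4 named features kept its direction and its call in exposed fish in all refits and alternatives that tested it. Sums per component gave no value for them.

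With a replicate block the exposed calls were 3416, with 1867 in both. Same-numbered exposed fish had deviations that correlated from -0.00944 to 0.232, over 0.1 in 2 of 6. In controls the range was -0.0926 to 0.169, over 0.1 in 1 of 6. In each kind of fish 2 of 6 correlated best with their own number, and these were replicates 1 and 2 in both. Most numbers did not match, so the numbers were not read as pairs. For each setting named, the cause was not tested.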

Other observations

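The 3981 calls in exposed fish fell into 3517 assembly components, and 431 components held 2 or more of them. In 421 of these all called features moved in the same direction. In the other 10, holding 22 called features, at least 1 feature was higher and at least 1 lower in post hypoxic than in acute hypoxic fish. Of those 22, 21 had the same sign in controls and 15 were called there, beside 97.5% with the same sign and 53.3% called among all exposed calls, and 73.5% and 7.88% among all features tested. Shared direction within components was not counted over all features tested, and features of the same component may divide reads. The 421 of 431 is therefore a description.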
